A study of Homo sapiens with 4 samples.

Results

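The kinetochore, the centromere on which it is built and the spindle checkpoint that reads it were described in PC3, an established line of human prostate carcinoma cells that grew out of a metastasis to bone. The set held 42 genes, chosen by name for their complex with earlier results of these data known, and 41 of them had at least 1 probe set that the array's annotation assigns to a single gene, 79 probe sets in all. CENPP, a subunit of the inner kinetochore, had no single-gene probe set. The 41 genes were part of 19775 genes measured on the array. Cells had been transfected with duplexes at 40 nM and RNA was taken 48 h later, with 2 arrays of COUP-TFII siRNA cells and 2 arrays of control siRNA cells. COUP-TFII is an orphan nuclear receptor, and the comparison asked what changes in expression when it is depleted. All cells were PC3 grown in RPMI with 10% fetal bovine serum. The labels do not say whether replicates were separate transfections, so a p-value here reflects the spread among these 4 arrays alone, and that spread may be technical. They also do not name the duplexes, and a single cell line limits what the groups stand for.

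The kinetochore is the protein assembly that couples each chromosome to spindle microtubules. Nucleosomes that carry the histone variant CENP-A mark the centromere, a constitutive network of inner kinetochore proteins binds them through the cell cycle, and the outer kinetochore is added in mitosis to grip microtubules. Kinetochores without attachment signal through the spindle checkpoint, which holds back the anaphase-promoting complex, while the chromosomal passenger complex releases faulty attachments. Transcripts of many of these proteins are periodic and peak in G2 and mitosis, so in dividing cancer cells their level also follows the share of cells in those phases. In RNA from a whole culture, fewer cells in those phases and less RNA per cell cannot be told apart.

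The arrays were alike in overall brightness, with medians of 31.7 to 32.9 intensity units. Of 8 measured epithelial and prostate markers, EPCAM and CDH1 fell (log2 fold changes -0.24 ± 0.04 and -0.30 ± 0.07, SE) and TMPRSS2, KRT8 and KRT18 rose (1.35 ± 0.11, 0.16 ± 0.05 and 0.13 ± 0.04, SE). KRT8 had 4735 and 4826 in COUP-TFII siRNA arrays and 4190.2 and 4341 in control siRNA arrays. TMPRSS2, a protease gene of luminal prostate cells, had 391 and 392 in COUP-TFII siRNA arrays and 132 and 157 in control siRNA arrays. KRT19, KLK3 and KLK2 did not pass, and the luminal prostate genes KLK3 and KLK2 reached at most 25.9 on any array. Of 11 measured fibroblast, endothelial and leukocyte markers, 1 passed the test, COL1A1, which was higher, against 12.7% of all genes that rose. The summed intensity of the list was 1325 to 1408 in COUP-TFII siRNA arrays and 906 to 971 in control siRNA arrays. Most of that difference lay in COL1A1, with 962 and 950 in COUP-TFII siRNA arrays and 599 and 540 in control siRNA arrays. The list's median log2 level was 5.23 and 5.12 in COUP-TFII siRNA arrays and 5.14 and 5.36 in control siRNA arrays. VWF lay at the floor of the values, between 1 and 1.76 on all 4 arrays. ACTB has control probe sets at both ends of its transcript, and their 3′/5′ ratio, which is lower in more intact RNA, was 1.42 and 1.46 in COUP-TFII siRNA arrays and 1.52 and 1.83 in control siRNA arrays, so it too differed between the groups. That of GAPDH was 0.994 and 0.986 in COUP-TFII siRNA arrays and 0.957 and 0.986 in control siRNA arrays. The part of these markers and ratios in the results was not tested.

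Most transcripts of the kinetochore and checkpoint fell after COUP-TFII siRNA, with at least 1 gene falling in each of the 8 complexes. Of the 41 measured members, 34 fell at an adjusted p of 0.05 (limma with Benjamini-Hochberg adjustment over all genes) and 0 were higher, against 10.3% of all genes that fell and 12.7% that rose. The median log2 fold change of the members was -1.08, with an interquartile range of -1.38 to -0.57, against a median of 0.01 over all genes. All fold changes are of value + 16 on the log2 scale, which understates the change of dim genes. The log2 fold change was -1 or less for 22 members, against 1.70% of all genes. In 37 members both COUP-TFII siRNA arrays lay below both control siRNA arrays, a pattern seen in 26.7% of all genes, and in 2 members, CENPC and MAD1L1, both lay above, as in 30.8% of all genes. The 7 members that did not pass were CENPC, CENPI, PMF1, BUB3, MAD1L1, INCENP and SGO1. At an unadjusted p under 0.05, CENPC and MAD1L1 did not pass as higher either, with 95% intervals of -0.02 to 0.54 and -0.02 to 0.61.

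**Figure D1:**
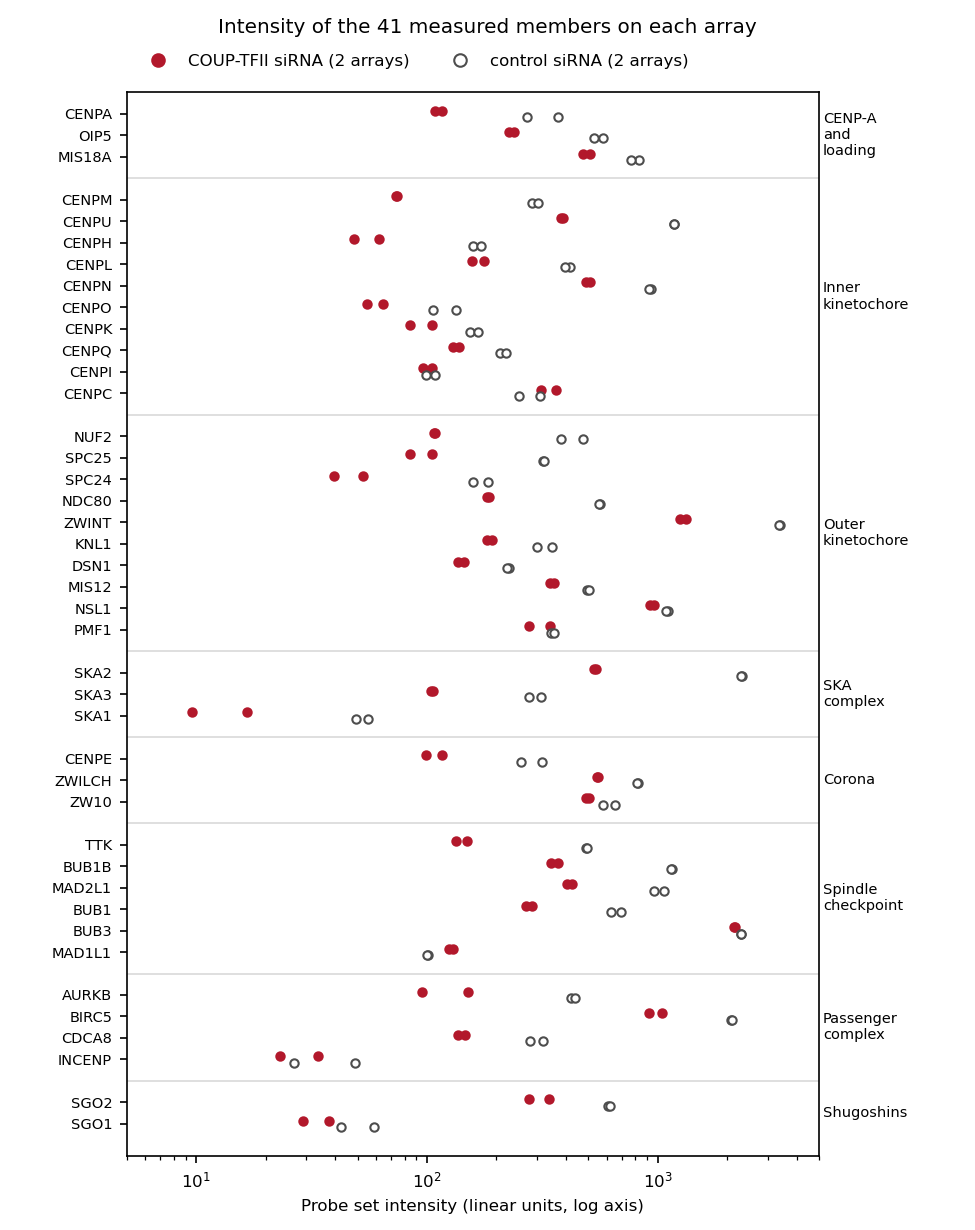
Probe set intensity of the 41 measured members on each array (log axis), grouped by complex and sorted by change within it. Filled points are the 2 COUP-TFII siRNA arrays and open points the 2 control siRNA arrays, and the filled points lie to the left of the open ones without overlap for 37 members.

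Since most members moved the same way, their promoters were searched for short motifs known from cell cycle genes. RefSeq promoter windows (GRCh38.p14, 250 bases before to 50 after the start) were at hand for 33 of the 41 members, and MIS18A, CENPH, CENPL, CENPM, KNL1, BUB3, TTK and BIRC5 were not searched. The cell cycle homology region, searched as TTTGAA on both strands, is bound by the MuvB core that the DREAM complex and the activators B-MYB and FOXM1 share. It was present in 15 of 33 member promoters (45.5%) and in 11.9% of the 15384 promoters of measured genes. The CCAAT box, bound by NF-Y and searched as CCAAT, was present in 22 (66.7%) against 36.1%. An E2F site, searched with the spelling TTCCCGC, the spelling TTGGCGC, the spelling TTCGCGC and the spelling TTGCCGC, was present in 13 (39.4%) against 17.0%. The nuclear receptor half-site AGGTCA, which COUP-TF proteins bind in repeats, was present in 3 (9.09%), SKA1, BUB1 and AURKB, against 11.5%. A match is only a run of letters, and these shares were not tested. Members with TTTGAA had a median log2 fold change of -1.25 (n = 15) and members without it -0.64 (n = 18), and both groups spanned a wide range, from -1.84 to 0.26 with the motif and from -2.08 to 0.30 without it. For the CCAAT box the order was the other way, at -0.99 with it (n = 22) and -1.24 without it (n = 11). For the E2F site the medians were -1.24 with it (n = 13) and -0.91 without it (n = 20), and for AGGTCA -1.24 with it (n = 3) and -0.92 without it (n = 30).

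The windows of the 4 members with the largest falls that hold both TTTGAA and CCAAT are shown, with both motifs in capital letters (read on the opposite strand they appear as TTCAAA and ATTGG), beside that of SKA2, the member with the largest fall, which was added after its value was seen. They are SPC25 at chr2:168890381-168890680 (minus strand), ZWINT at chr10:56361210-56361509 (minus strand), CENPA at chr2:26785806-26786105 (plus strand), MAD2L1 at chr4:120066799-120067098 (minus strand) and SKA2 at chr17:59155137-59155436 (minus strand), each 300 bases, 5′ to 3′ on the gene's own strand.
SPC25: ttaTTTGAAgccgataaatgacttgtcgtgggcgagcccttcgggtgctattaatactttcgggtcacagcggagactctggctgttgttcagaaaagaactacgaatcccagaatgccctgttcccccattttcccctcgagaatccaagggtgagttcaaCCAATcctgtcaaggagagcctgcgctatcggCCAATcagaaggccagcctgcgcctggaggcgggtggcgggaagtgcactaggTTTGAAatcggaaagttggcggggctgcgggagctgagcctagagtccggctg
ZWINT: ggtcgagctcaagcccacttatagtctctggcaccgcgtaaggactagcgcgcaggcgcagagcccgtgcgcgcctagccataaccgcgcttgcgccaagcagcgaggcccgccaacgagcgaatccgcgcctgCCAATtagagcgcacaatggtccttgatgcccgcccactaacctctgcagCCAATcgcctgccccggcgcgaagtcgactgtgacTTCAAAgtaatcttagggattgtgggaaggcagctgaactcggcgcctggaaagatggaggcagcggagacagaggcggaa
CENPA: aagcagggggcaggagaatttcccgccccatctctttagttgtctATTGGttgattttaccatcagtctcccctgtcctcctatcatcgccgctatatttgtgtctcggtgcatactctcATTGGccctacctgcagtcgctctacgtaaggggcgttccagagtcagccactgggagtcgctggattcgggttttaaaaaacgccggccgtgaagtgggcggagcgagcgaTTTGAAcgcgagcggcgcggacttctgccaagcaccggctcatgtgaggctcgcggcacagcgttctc
MAD2L1: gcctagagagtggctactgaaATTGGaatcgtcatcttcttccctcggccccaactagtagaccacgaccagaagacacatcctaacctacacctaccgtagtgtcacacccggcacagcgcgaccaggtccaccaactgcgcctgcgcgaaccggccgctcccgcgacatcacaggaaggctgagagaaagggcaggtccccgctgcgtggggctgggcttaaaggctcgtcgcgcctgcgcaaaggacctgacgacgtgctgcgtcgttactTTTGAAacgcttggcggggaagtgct
SKA2: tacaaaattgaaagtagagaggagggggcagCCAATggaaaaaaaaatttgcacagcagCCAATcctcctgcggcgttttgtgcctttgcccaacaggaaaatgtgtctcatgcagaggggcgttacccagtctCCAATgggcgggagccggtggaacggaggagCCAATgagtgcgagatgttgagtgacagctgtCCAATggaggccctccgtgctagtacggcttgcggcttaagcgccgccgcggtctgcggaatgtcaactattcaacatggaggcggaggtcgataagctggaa
The SKA2 window held 5 CCAAT boxes, all on the gene's strand, and no TTTGAA, E2F site or AGGTCA. In SPC25, ZWINT and CENPA 1 TTTGAA match lay downstream of 2 CCAAT boxes, and in SPC25 a second match lay near the far end of the window. In MAD2L1 the single TTTGAA lay at base 275 of the window, past the annotated start. TTTGAA and CCAAT were both held by 9 of 33 member windows (27.3%), against 4.82% of promoters of measured genes. Among these members CENPC and INCENP did not pass, and ZW10 had a log2 fold change of -0.31. CENPI, DSN1, NSL1, CENPE and MAD1L1 had none of the 4 motifs in their windows, and their log2 fold changes ran from -1.28 for CENPE to 0.30 for MAD1L1.

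At the centromere itself, CENP-A and both subunits of the MIS18 complex, which prepares its loading, fell. CENPA, the centromeric histone H3 variant, had intensities of 109 and 116 in COUP-TFII siRNA arrays and 369 and 270.2 in control siRNA arrays, and fell by 1.37 ± 0.15 on the log2 scale (SE, limma adjusted p = 0.000245). Its only probe set is of a type (_x_at) that can hybridise to related sequences. OIP5, also known as MIS18-beta, which primes centromeres for new CENP-A, stood at 227 and 238 with COUP-TFII siRNA, against 577 and 530.1 with control siRNA (log2 fold change -1.19 ± 0.09, SE). MIS18A, its partner in the MIS18 complex, had 509 and 477 in COUP-TFII siRNA arrays against 833 and 769.6 in control siRNA arrays, with a log2 fold change of -0.68 ± 0.08 (SE) that was -0.39 after centring on housekeeping genes. The COUP-TFII siRNA arrays were the lower ones for all 3 genes, with no overlap. Of the 3 MIS18A probe sets, 2 fell and the dimmest did not pass (adjusted p = 0.0844). HJURP, the chaperone that deposits CENP-A and is not a member, had 93.1 and 90.0 in COUP-TFII siRNA arrays and 383 and 342 in control siRNA arrays.

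In the inner kinetochore network, 8 of 10 measured subunits fell. CENPC and CENPI did not pass, and the 10 genes had a median log2 fold change of -0.85 that was -0.56 after centring on housekeeping genes. CENPM fell most, with 73.1 and 74.2 in COUP-TFII siRNA arrays against 285 and 302 in control siRNA arrays (log2 fold change -1.79 ± 0.12, SE, limma adjusted p = 1.71e-05). CENPU, which recruits the kinase PLK1 to the kinetochore, had 380.2 and 388 in COUP-TFII siRNA arrays against 1173 and 1172 in control siRNA arrays (log2 fold change -1.57 ± 0.07, SE), and 2 of its 3 probe sets fell. CENPH had 48.3 and 62.0 in COUP-TFII siRNA arrays against 159 and 171 in control siRNA arrays (log2 fold change -1.35 ± 0.16, SE), on a single _x_at probe set. None of these 3 genes had overlapping groups. CENPL and CENPN, which form a pair that reads the CENP-A nucleosome, fell, with log2 fold changes of -1.21 ± 0.10 and -0.87 ± 0.07 (SE). After centring on housekeeping genes that of CENPN was -0.57. Of the 4 CENPN probe sets, 3 fell, with log2 fold changes of -1.62, -1.18 and -0.87, and the dimmest did not pass.

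The weakest calls of the network were in CENPO, CENPK and CENPQ, with log2 fold changes of -0.84 ± 0.17, -0.67 ± 0.15 and -0.61 ± 0.12 (SE). The second CENPO probe set, with a log2 fold change of -0.47, did not pass (limma adjusted p = 0.129 in the fit of all probe sets). Centring on housekeeping genes left -0.55 for CENPO, -0.32 for CENPQ and -0.38 for CENPK, the last no longer past the threshold (limma adjusted p = 0.0573). CENPK did not pass without control siRNA replicate 1 (limma adjusted p = 0.0891), control siRNA replicate 2 (0.136) or COUP-TFII siRNA replicate 2 (0.103), nor with 1 prior variance for all genes (0.0629). CENPO did not pass without control siRNA replicate 2 (limma adjusted p = 0.116) or either COUP-TFII siRNA replicate (0.104 without replicate 1, 0.0687 without replicate 2). CENPQ did not pass without control siRNA replicate 1 (limma adjusted p = 0.0598), control siRNA replicate 2 (0.0863) or COUP-TFII siRNA replicate 2 (0.0631). All 3 kept a negative fold change in these fits.

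CENPC, the scaffold that links the CENP-A nucleosome to the outer kinetochore, did not pass. It had 363 and 311 in COUP-TFII siRNA arrays and 310.3 and 251 in control siRNA arrays, a log2 fold change of 0.26 with a 95% interval of -0.02 to 0.54 (limma adjusted p = 0.192). The groups lay next to each other. Both COUP-TFII siRNA arrays lay above both control siRNA arrays, as in 30.8% of all genes. CENPC passed as higher when dim genes were left out of the fit (limma adjusted p = 0.027) and after centring on housekeeping genes (0.55, limma adjusted p = 0.0022). Those fits called 3003 of 9889 and 7426 of 19775 genes higher. Without dim genes 2326 of 9889 genes were called lower, and the limma adjusted p of CENPU reached 4.5e-66. With 4 arrays, p-values of that fit carry little weight. CENPI, on its brightest probe set, had 95.7 and 105 in COUP-TFII siRNA arrays against 108 and 98.6 in control siRNA arrays, and the groups overlapped (95% interval -0.37 to 0.30). Another of its 4 probe sets, with 25.1 and 29.4 in COUP-TFII siRNA arrays against 81.95 and 75.02 in control siRNA arrays, fell by 1.13 on the log2 scale (limma adjusted p = 0.0097 in the fit of all probe sets). These probe sets of CENPI thus gave different calls.

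**Figure D2:**
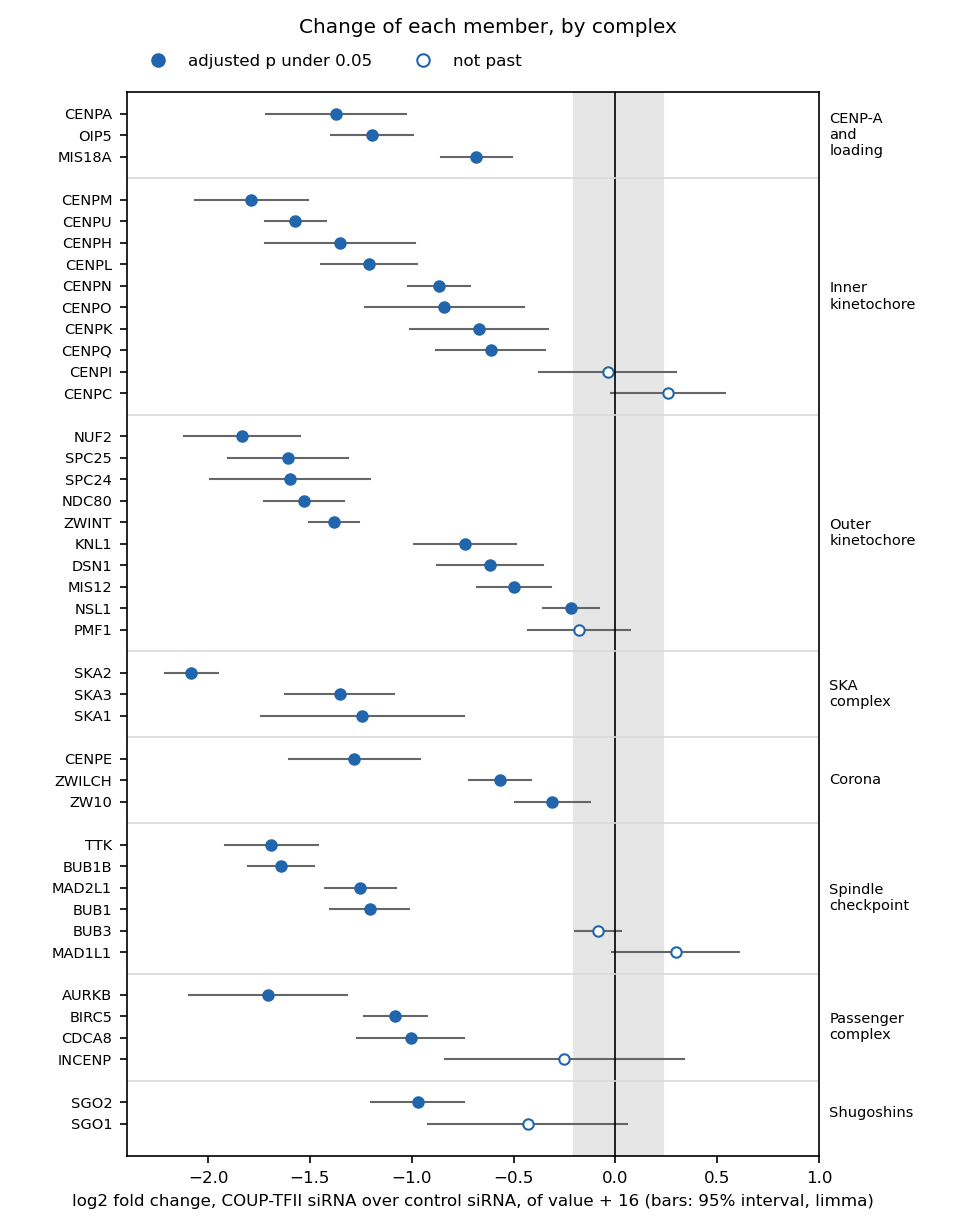
Log2 fold change of each member, COUP-TFII siRNA over control siRNA, of value + 16, with its 95% interval from limma, grouped by complex. Filled points passed an adjusted p of 0.05, and the grey band spans the middle of all genes, the interquartile range from -0.20 to 0.23.

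Among the 10 genes of the outer kinetochore 9 fell, all but PMF1. Their median log2 fold change was -1.06, or -0.61 when the probe sets of a gene were averaged. NUF2, a subunit of the NDC80 complex that binds the microtubule, had 107 and 109 in COUP-TFII siRNA arrays and 476 and 382 in control siRNA arrays (log2 fold change -1.84 ± 0.13, SE, limma adjusted p = 1.71e-05). SPC25 had 105 and 84.1 in COUP-TFII siRNA arrays against 318 and 322 in control siRNA arrays (log2 fold change -1.61 ± 0.13, SE), and SPC24, its partner at the inner end of the complex, 39.5 and 52.8 in COUP-TFII siRNA arrays against 184 and 159 in control siRNA arrays (log2 fold change -1.60 ± 0.17, SE). In all of them the COUP-TFII siRNA arrays lay far below the control siRNA arrays. SPC24 had a second, dim probe set, with 24.2 and 16.1 in COUP-TFII siRNA arrays and 12.95 and 10.37 in control siRNA arrays, which did not pass, and averaging both left a log2 fold change of -0.61. NDC80 itself had 186 and 182 in COUP-TFII siRNA arrays against 565 and 558 in control siRNA arrays and fell by 1.53 ± 0.09 on the log2 scale (SE). ZWINT, which binds KNL1, had 1244 and 1319.8 in COUP-TFII siRNA arrays against 3394 and 3339.9 in control siRNA arrays and a log2 fold change of -1.38 ± 0.05 (SE). KNL1, the scaffold that receives checkpoint proteins, fell by 0.74 ± 0.11 (SE). Only the brightest of the 4 KNL1 probe sets passed, and averaging them gave -0.39, which did not pass (limma adjusted p = 0.146). After centring on housekeeping genes the log2 fold change of KNL1 was -0.45.

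The subunits of the MIS12 complex, which joins the inner to the outer kinetochore, had smaller fold changes than those of the NDC80 complex. The 4 NDC80 complex subunits had log2 fold changes from -1.84 to -1.53 and the 4 MIS12 complex subunits from -0.62 to -0.18. These subgroups were set side by side after their values were seen, and the difference between them was not tested. DSN1, MIS12 and NSL1 fell, with log2 fold changes of -0.62 ± 0.11, -0.50 ± 0.08 and -0.22 ± 0.06 (SE). PMF1 had 276 and 340.0 in COUP-TFII siRNA arrays and 343 and 356 in control siRNA arrays, groups that lie close together without overlap (95% interval -0.43 to 0.07, limma adjusted p = 0.309). Both COUP-TFII siRNA arrays lay below both control siRNA arrays in 26.7% of all genes.

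Calls within the MIS12 complex were fragile. NSL1 passed by a small margin (limma adjusted p = 0.03) and did not pass without control siRNA replicate 1 (limma adjusted p = 0.187), control siRNA replicate 2 (0.16), COUP-TFII siRNA replicate 1 (0.0695) or COUP-TFII siRNA replicate 2 (0.117), with 1 prior variance (0.201) or with averaged probe sets (0.497, log2 fold change -0.13). DSN1 did not pass without control siRNA replicate 1 (limma adjusted p = 0.0678), control siRNA replicate 2 (0.0651) or COUP-TFII siRNA replicate 1 (0.0538). MIS12 did not pass without control siRNA replicate 2 (limma adjusted p = 0.0525) or with 1 prior variance (0.0509). None of the 4 NSL1 probe sets passed in the fit of all probe sets. The one that represents the gene had a limma adjusted p of 0.0502 there. Centring on housekeeping genes left -0.32 for DSN1 and -0.205 for MIS12 (limma adjusted p = 0.0538), and turned NSL1 to 0.07 and PMF1 to 0.11.

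All 3 genes of the SKA complex, which helps NDC80 keep hold of shortening microtubules, fell. Their median log2 fold change was -1.35, or -1.97 with 1 added in place of 16. SKA2 had the largest fall of any member, with 541 and 528 in COUP-TFII siRNA arrays and 2326 and 2302 in control siRNA arrays. It fell by 2.08 ± 0.06 on the log2 scale (SE, limma adjusted p = 4.35e-07), a 4.24-fold lower level and the 15th lowest fold change of the 19775 genes. Its second probe set, with 535 and 535 in COUP-TFII siRNA arrays against 1535 and 1410.2 in control siRNA arrays, fell by 1.43. SKA3 had 104 and 106 in COUP-TFII siRNA arrays against 278 and 311 in control siRNA arrays (log2 fold change -1.35 ± 0.12, SE). SKA1 was dim, with 9.58 and 16.6 in COUP-TFII siRNA arrays and 55.2 and 49.5 in control siRNA arrays on an _x_at probe set, and its log2 fold change of -1.24 was -1.97 with 1 added in place of 16 and -0.60 with 64 added. It did not pass without control siRNA replicate 1 (limma adjusted p = 0.0608) or COUP-TFII siRNA replicate 1 (0.062). In the RefSeq gene table the protein-coding genes next to SKA2 are TRIM37, on the same strand, and PRR11, on the opposite strand. They were looked up after the value of SKA2 was seen, and values of TRIM37 are not given here. PRR11 had 1236 and 1285 in COUP-TFII siRNA arrays and 3080 and 2884 in control siRNA arrays, and fell by 1.23 ± 0.06 on the log2 scale (SE, limma adjusted p = 2.50e-06).

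The fibrous corona forms outside the kinetochore before attachment, and its 3 measured genes fell by unequal amounts. CENPE, a kinesin that carries chromosomes towards the spindle equator, had 98.6 and 116 in COUP-TFII siRNA arrays and 315 and 254 in control siRNA arrays, and fell by 1.28 ± 0.14 on the log2 scale (SE). ZWILCH, a subunit of the RZZ complex that recruits checkpoint proteins and dynein, had 551 and 544 in COUP-TFII siRNA arrays against 824 and 812 in control siRNA arrays (log2 fold change -0.57 ± 0.07, SE). ZW10, another subunit with a further role in membrane traffic outside mitosis, had 503 and 489 in COUP-TFII siRNA arrays against 582 and 656 in control siRNA arrays. The groups did not overlap for any of them, but those of ZW10 were the closest. ZW10 passed at -0.31 ± 0.08 (SE, limma adjusted p = 0.0246) but did not pass without control siRNA replicate 1 (0.0621), control siRNA replicate 2 (0.22), COUP-TFII siRNA replicate 1 (0.123) or COUP-TFII siRNA replicate 2 (0.151), nor with 1 prior variance (0.151). After centring on housekeeping genes it was -0.02 for ZW10 (limma adjusted p = 0.883) and -0.27 for ZWILCH, which also set the complex median to -0.27, against -0.57. KNTC1, the remaining RZZ subunit and not a member, fell by 0.87 ± 0.13 on the log2 scale.

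Of the 6 spindle checkpoint genes 4 fell, all but BUB3 and MAD1L1. The 6 had a median log2 fold change of -1.23, or -0.74 with averaged probe sets. TTK, the kinase MPS1 that starts the checkpoint signal, had 133 and 149 in COUP-TFII siRNA arrays and 488 and 492 in control siRNA arrays (log2 fold change -1.69 ± 0.10, SE, limma adjusted p = 8.42e-06). BUB1B, which encodes BUBR1, a part of the complex that inhibits the anaphase-promoting complex, had 369.5 and 344 in COUP-TFII siRNA arrays against 1154 and 1141 in control siRNA arrays (log2 fold change -1.64 ± 0.07, SE). MAD2L1, whose product changes shape at unattached kinetochores, had 403 and 426 in COUP-TFII siRNA arrays against 1061 and 963 in control siRNA arrays (log2 fold change -1.25 ± 0.08, SE). These 3 genes were lower in both COUP-TFII siRNA arrays by more than the spread between replicates. Of the 3 MAD2L1 probe sets, 2 fell and the dimmest did not pass (limma adjusted p = 0.0807 in the fit of all probe sets). The kinase gene BUB1 fell by 1.21 ± 0.09, on 1 of 5 probe sets. The other 4 BUB1 probe sets had group means under 50, and the average of all 5 had -0.43 and did not pass (limma adjusted p = 0.108).

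BUB3 and MAD1L1, the partners of these proteins, did not pass. BUB3, the WD40 protein that binds both BUB1 and BUBR1, had 2150.3 and 2168 in COUP-TFII siRNA arrays and 2293 and 2293 in control siRNA arrays on its brightest probe set. Its 95% interval was -0.20 to 0.03, which does not reach the fold changes of BUB1 or BUB1B. Of its 6 probe sets, 2 others passed as lower with log2 fold changes of -0.28 and -0.32 (limma adjusted p = 0.0481 and 0.0139 in the fit of all probe sets), while centring on housekeeping genes made the brightest one higher by 0.21 (limma adjusted p = 0.00338). MAD1L1, the anchor of MAD2 at kinetochores, had 124 and 129.7 in COUP-TFII siRNA arrays against 101 and 100.1 in control siRNA arrays, with both COUP-TFII siRNA arrays above both control siRNA arrays (log2 fold change 0.30, 95% interval -0.02 to 0.61, limma adjusted p = 0.175). MAD1L1 passed as higher after that centring (0.59, limma adjusted p = 0.00558). Both COUP-TFII siRNA arrays lay above both control siRNA arrays in 30.8% of all genes.

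In the chromosomal passenger complex, 3 of 4 genes fell, all but INCENP. The median log2 fold change was -1.04. AURKB, the kinase of the complex, had 95.5 and 151 in COUP-TFII siRNA arrays and 422 and 437 in control siRNA arrays, where the wider spread is between the COUP-TFII siRNA arrays. BIRC5, or survivin, had 918 and 1040.0 in COUP-TFII siRNA arrays against 2068 and 2099.7 in control siRNA arrays, and all 4 of its probe sets fell. CDCA8, or borealin, had 136 and 146 in COUP-TFII siRNA arrays against 319.9 and 279.7 in control siRNA arrays. The 3 log2 fold changes were -1.71 ± 0.17, -1.08 ± 0.07 and -1.01 ± 0.12 (SE), with no overlap between groups. The second AURKB probe set, with 31.3 and 38.4 in COUP-TFII siRNA arrays and 18.1 and 16.7 in control siRNA arrays, did not pass, and averaging both left -0.55 (limma adjusted p = 0.047). INCENP, the scaffold, was dim on its only probe set, with 33.8 and 23.1 in COUP-TFII siRNA arrays against 26.5 and 48.8 in control siRNA arrays, groups that overlap (95% interval -0.84 to 0.34, limma adjusted p = 0.578).

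The shugoshins guard cohesin at centromeres until anaphase. SGO2 had 338 and 277 in COUP-TFII siRNA arrays and 612 and 619 in control siRNA arrays, and fell by 0.97 ± 0.10 on the log2 scale (SE, limma adjusted p = 0.000179) with both of its probe sets passing. SGO1 was dim, with 29.1 and 37.5 in COUP-TFII siRNA arrays against 42.5 and 59.0 in control siRNA arrays, and did not pass (95% interval -0.92 to 0.06). The groups did not overlap for either gene, and both COUP-TFII siRNA arrays lay below both control siRNA arrays in 26.7% of all genes. The median of both genes was -0.70, or -0.41 after centring on housekeeping genes.

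**Figure D3:**
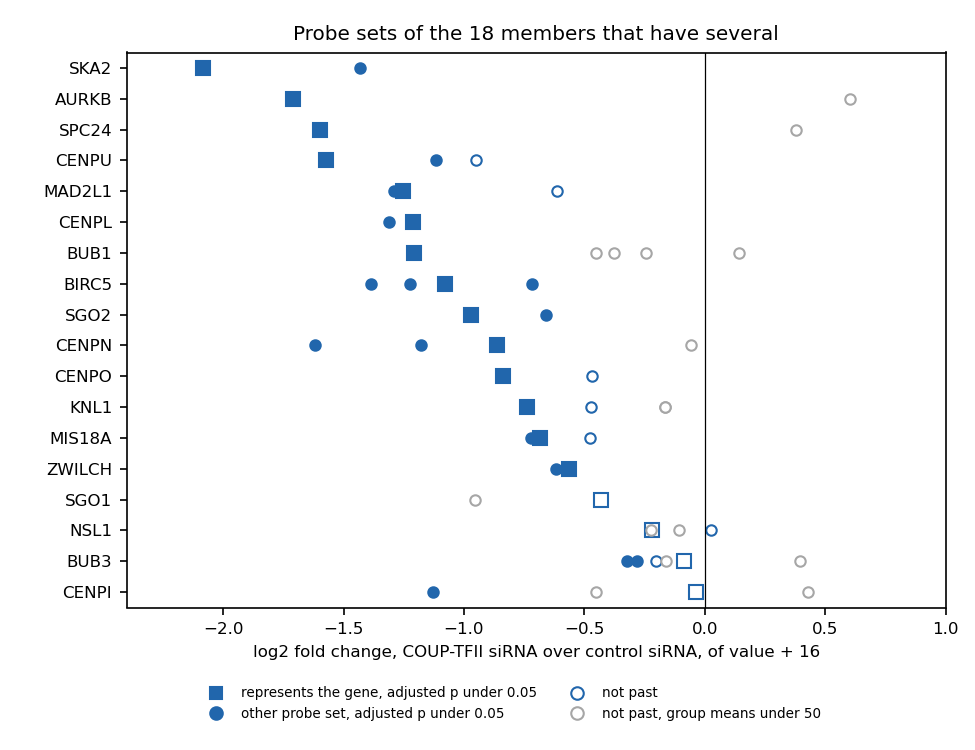
Log2 fold change of every single-gene probe set of the 18 members that have several, COUP-TFII siRNA over control siRNA, of value + 16. Squares are the probe sets that represent the gene, filled symbols passed an adjusted p of 0.05 over all probe sets, and grey outlines mark probe sets with both group means under 50, of which 0 passed.

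When every probe set was tested with limma, 48 of the 79 member probe sets fell and 0 were higher (2, of MAD1L1 and AURKB, at an unadjusted p under 0.05), against 5.67% of all 54613 probe sets that fell. The log2 fold change was below 0 for 71 of the 79. All 17 probe sets with both group means under 50 missed the threshold, so each of the 48 was among the other 62. Of the 18 members with several probe sets, 5 had all of them lower and past the threshold: CENPL, SKA2, ZWILCH, BIRC5 and SGO2. The count of 48 was 21 with 1 prior variance for all probe sets, and it was also smaller when any 1 array was left out. Matching counts over all probe sets are not given here, so these drops cannot be read as particular to the members. By gene, 1 prior variance lowered the count of all genes that fell from 2039 to 814.

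By gene, the count of 34 was 28 without control siRNA replicate 1, 27 without control siRNA replicate 2 and 29 without either COUP-TFII siRNA replicate, and 26 of the 34 passed in all 4 of these fits. The 8 that did not were CENPK, CENPO, CENPQ, DSN1, MIS12, NSL1, SKA1 and ZW10. The same fits also moved the count of all genes that fell, which was 2039 with all arrays, 886 without control siRNA replicate 1, 942 without control siRNA replicate 2, 1370 without COUP-TFII siRNA replicate 1 and 1126 without COUP-TFII siRNA replicate 2. Centring the arrays on the median of 12 housekeeping genes raised the median of all genes by 0.29. It turned the split of 2519 higher and 2039 lower into 7426 higher and 945 lower. With this centring, 30 members fell and 3 rose, CENPC, BUB3 and MAD1L1. The arrays were matched at the median log2 level of the housekeeping genes. That level was 11.92 and 11.91 in control siRNA arrays and 11.65 and 11.60 in COUP-TFII siRNA arrays. The genes' median log2 fold change was only -0.04, so the 0.29 is not their typical change. The middle of their levels included HPRT1, itself called lower, in control siRNA arrays and SDHA, called higher, in COUP-TFII siRNA arrays. Among the 12, PPIA was represented by a dim probe set. It had 14.2 and 5.91 in COUP-TFII siRNA arrays and 1 and 11.0 in control siRNA arrays.

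Other genes of the centromere and kinetochore, from a list of 24 measured genes outside the set, gave a mixed picture. Among them, limma called 14 lower and 0 higher (1, CLASP1, at an unadjusted p under 0.05). The median log2 fold change of the 24 was -0.60. The lowest log2 fold changes were those of HJURP at -1.81 ± 0.12, CENPW, an inner kinetochore histone-fold protein, at -1.42 ± 0.08, TRIP13, the ATPase that remodels MAD2, at -1.21 ± 0.08 and CDC20, the checkpoint's target, at -1.20 ± 0.07 (SE). The 10 that did not pass were CENPB, CENPT, MAD2L1BP, HASPIN, AURKC, CLASP1, CLASP2, NDE1, NDEL1 and DYNLT3, with log2 fold changes from -0.32 for HASPIN to 0.31 for CLASP1. Of 19 genes of mitotic entry and G2/M, 18 fell (all but CCNF), with a median of -1.19 and the lowest values in CCNA2, CDK1, PRC1 and KIF11 (-1.79, -1.60, -1.55 and -1.52). Of 24 S phase and replication genes, 22 fell (all but RFC5 and CDT1), with a median of -0.90 and the lowest values in GINS2, POLE2, CDC6 and RRM2 (-2.26, -1.80, -1.71 and -1.54). Of 12 housekeeping genes, HPRT1 and PGK1 fell (-0.77 and -0.26) and POLR2A and SDHA rose (1.04 and 0.20). The members' median of -1.08 lay between these lists, and no list was tested against another.

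**Figure D4:**
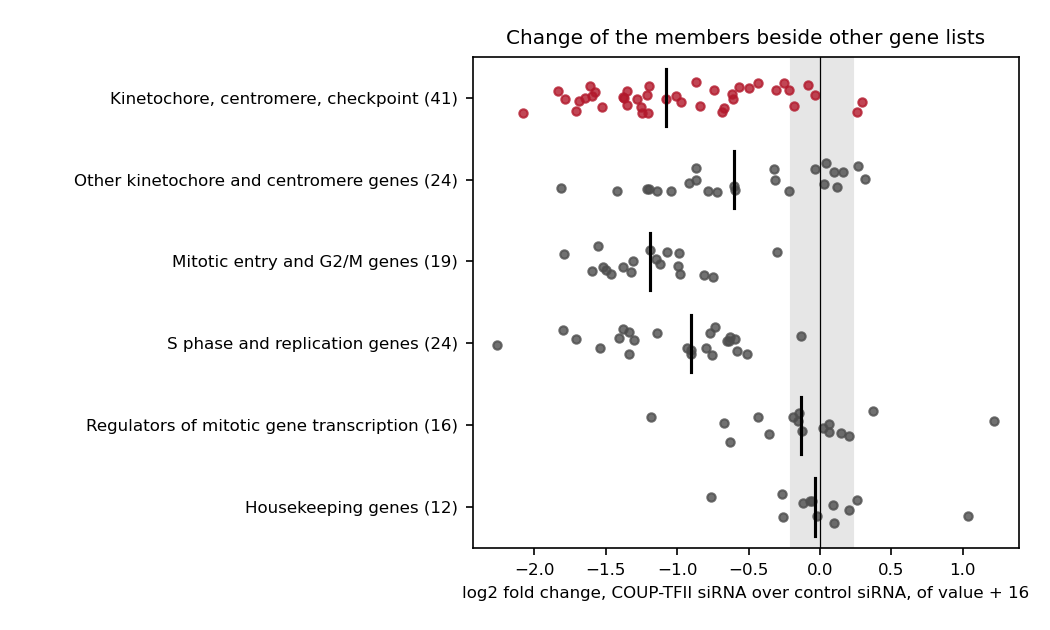
Log2 fold change, COUP-TFII siRNA over control siRNA, of value + 16, of the 41 members and of 5 other gene lists, with 1 point per gene, a bar at the median and a grey band over the interquartile range of all genes. The members' median is -1.08, that of G2/M genes -1.19, that of replication genes -0.90 and that of housekeeping genes -0.04.

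Of 16 measured regulators of mitotic transcription, 3 (18.8%) fell and 2 rose, against 10.3% of all genes that fell and 12.7% that rose, and the other 11 missed the threshold. The median log2 fold change was -0.13. MYBL2, which encodes B-MYB, had 97.4 and 119 in COUP-TFII siRNA arrays and 256 and 273 in control siRNA arrays, a log2 fold change of -1.18 ± 0.13 (SE). RBL1, the pocket protein p107, and FOXM1 also fell (-0.67 ± 0.14 and -0.63 ± 0.11, SE). The 2 that rose were CDKN1A, the kinase inhibitor p21, with 1979 and 1941 in COUP-TFII siRNA arrays against 793 and 878 in control siRNA arrays, and LIN37, a MuvB subunit, at 0.37 ± 0.11. The NF-Y subunit genes NFYA, NFYB and NFYC had log2 fold changes of 0.02, 0.20 and 0.15 and did not pass.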

How the data were processed

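Total RNA was extracted with Trizol and labelled with biotin by a 3′ IVT kit and hybridised to Affymetrix arrays, as the labels' protocols state. The authors deposited a linear intensity for each probe set, between 0.61 and 15890.4. How they summarised, background-corrected and normalized it is not given in the sources used here. There are no detection calls, and precision is limited by having 4 arrays. Medians of the arrays lay within 3.66% of each other, under a limit of 5%, so no scaling was applied.

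The array's annotation named 1 gene for 41091 probe sets, several for 1801 and none for 11721, and 62 control probe sets were left out. Symbols were updated through Entrez identifiers (41037 matched) in a RefSeq table of GRCh38.p14. Each gene was represented by the brightest of its single-gene probe sets (mean of the 4 arrays), avoiding _x_at probe sets where possible. Of the 41 members, 3 had only _x_at and 10 were represented by _s_at or _a_at probe sets, which can match several transcripts. Values were tested as log2(value + 16) with limma 3.58.1 in R 4.3.3 (lmFit, eBayes with an intensity trend, no replicate block), two-sided, with Benjamini-Hochberg adjustment over 19775 genes, and likewise over 54613 probe sets. The fit was also run on simulated data, and no outcome of that run is given or used here. The fit with 2 residual degrees of freedom had a median of 8.78 after moderation. Figures were drawn with matplotlib 3.10.9.

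The members and lists were chosen with earlier results of these data known. Values by array are given, in each complex, for the 3 members with the largest change past the threshold and for every member that did not pass. From other lists, up to 4 genes with the largest change and any in the opposite direction are named. Others were singled out with their values known (KNTC1, PRR11, the NF-Y subunits and the values by array of NDC80 and ZWINT). Promoters were searched for 4 motifs, without a test. The transcript of the targeted gene is not reported here. Alternatives covered normalization, pseudocount, dim genes, prior variance, probe set choice, the replicate block and each array left out.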

Additional observations from a re-analysis of the deposited data

How the results depend on the processing

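The count of 34 members that fell was 27 to 34 over 13 alternatives, and 24 of the 34 kept direction and call wherever they were fitted. Of the 7 members that did not pass, 3 passed as higher after centring on housekeeping genes and 1, CENPC, with dim genes left out. Those fits called 7426 of 19775 and 3003 of 9889 genes higher. The median log2 fold change of the members was -0.79 after that centring, -0.88 with 64 added and -0.82 with averaged probe sets, against -1.08, and -1.13 to -1.07 with 1 array left out. The count of 48 member probe sets was 21 with 1 prior variance and 19 to 33 with 1 array left out. After centring on housekeeping genes the fold change changed sign for CENPI (0.25), NSL1 (0.074), PMF1 (0.11), BUB3 (0.21) and INCENP (0.042). These changes of sign follow from the 0.29 that centring added to every log2 fold change. With 1 array left out the fold change ran from -0.096 to 0.020 for CENPI and from -0.555 to 0.055 for INCENP. For the shifts with 1 array left out the cause was not tested. With the replicate number as a block (replicate block), 34 members and 51 member probe sets fell, and 0 members changed call. Deviations of same-numbered arrays correlated at 0.02 across genes, and the labels state no pairing. Among the 17 member probe sets below 50 intensity units in both groups, 0 passed.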
